A study of Homo sapiens with 2 samples.

Results

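In the breast cancer line MDA-MB-231, which is triple-negative and long established in culture, 1838 PRMT6 peaks coincided with a PARP1 peak at the promoter of a single protein-coding gene. They are 1838 of the 9080 peaks of the PRMT6 list (20.2%, 95% interval 19.4% to 21.1%). Members were selected on their position and on the overlap itself. A PRMT6 peak on chromosomes 1 to 22 or X had to share at least 1 bp with a PARP1 peak and to lie no more than 3 kb from a coding gene's 5′ end. A peak was left out if it lay within 1 kb of a gene that forms a head-to-head pair with another coding gene, meaning that a coding 5′ end on the opposite strand lies at most 1 kb away. Of 4206 PRMT6 peaks that overlapped a PARP1 peak, 2103 lay at coding promoters, and 265 of these were left out as bidirectional. The study profiled cells with no treatment, grown in DMEM with serum, with 1 library per antibody, an antibody against PRMT6 and an antibody against PARP1, so no value has a replicate check and no test between antibodies was made. Both antibodies came from the same supplier, and the cells shared every culture condition that the labels give. Intervals are 95% intervals, exact binomial for shares and from order statistics for medians. They treat peaks or genes as independent and cover counting error only.

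PRMT6 methylates arginine residues of histones and other proteins, and PARP1 attaches chains of ADP-ribose to proteins and binds DNA breaks and open chromatin. A promoter is the stretch around the start of a gene where transcription factors and RNA polymerase assemble. Promoters of widely expressed human genes are often rich in CpG dinucleotides and carry short motifs such as the GC box, bound by SP and KLF factors, the CCAAT box, bound by the trimeric factor NF-Y, and the ETS motif. Many human promoters also fire in the opposite direction, into a noncoding or a coding gene.

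The rule left 17671 coding genes with a single promoter, and 1997 of them (11.3%) had a member peak within 3 kb. This share is the background for every count of genes given here. A reference promoter sequence was at hand for under 80% of these genes, so the next values are a description. Among the 8087 single-promoter genes with a CpG-rich sequence, 1450 (17.9%) had a member peak, and among the 5145 with another sequence 222 did (4.32%, 3.78% to 4.91%). CpG-rich means an observed over expected CpG ratio of at least 0.6 and a GC content of at least 50% over the 300 bases from 250 bases before to 50 bases after the start. Chromosome 19 had the highest share of its single-promoter genes with a member peak, 239 of 1266 (18.9%, 16.8% to 21.1%). Chromosome 14 followed with 87 of 524 (16.6%, 13.5% to 20.1%), and these 2 intervals overlapped. The lowest share was that of chromosome X, 32 of 787 (4.07%, 2.80% to 5.69%). Most members lay near 1 coding 5′ end. Of the 1838 peaks, 213 (11.6%) lay within 3 kb of more than 1 coding 5′ end, and 24 of 1814 nearest genes had 2 member peaks. TMEM87B, EIF1, a factor of start codon selection in translation, and MAD2L1BP, a regulator of the spindle checkpoint, were the best ranked of these. No gene had more than 2.

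The sequences at the strongest members are given as examples. Printed are the bases upstream of the listed start that lie inside both the PRMT6 and the PARP1 peak, for the 7 of the 10 best ranked members with such a stretch and for the clock genes PER3 and DBP. The sequences are those of RefSeq, assembly GRCh38.p14, 5′ to 3′ in the direction of the gene. Capitals mark the letters of the searched motifs on either strand, which here are the GC box (GGGCGG or CCGCCC), the CCAAT motif (CCAAT or ATTGG, longer where it reads AGCCAAT or ATTGGCT), the E-box CACGTG and the NRF1 motif (GCGCATGCG or CGCATGCGC). The stretch of CIC is chr19:42268310-42268529 on the plus strand, that of AP2A1 is chr19:49766751-49766933 on the plus strand and that of ELL is chr19:18522122-18522320 on the minus strand. The stretch of HDGFL2 is chr19:4472047-4472223 on the plus strand, that of KMT5C is chr19:55339626-55339875 on the plus strand and that of PCNX3 is chr11:65615526-65615775 on the plus strand. The stretch of VMAC is chr19:5904622-5904834 on the plus strand, that of PER3 is chr1:7784041-7784254 on the plus strand and that of DBP is chr19:48637437-48637629 on the minus strand.
CIC: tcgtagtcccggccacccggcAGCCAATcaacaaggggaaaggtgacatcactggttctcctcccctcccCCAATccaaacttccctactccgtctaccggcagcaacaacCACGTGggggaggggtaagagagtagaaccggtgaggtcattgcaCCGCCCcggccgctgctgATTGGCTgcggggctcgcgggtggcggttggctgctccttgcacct
AP2A1: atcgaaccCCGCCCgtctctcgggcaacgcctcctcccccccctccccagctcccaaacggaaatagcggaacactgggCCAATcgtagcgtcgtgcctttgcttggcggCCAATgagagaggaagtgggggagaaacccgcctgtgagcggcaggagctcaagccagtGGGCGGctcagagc
ELL: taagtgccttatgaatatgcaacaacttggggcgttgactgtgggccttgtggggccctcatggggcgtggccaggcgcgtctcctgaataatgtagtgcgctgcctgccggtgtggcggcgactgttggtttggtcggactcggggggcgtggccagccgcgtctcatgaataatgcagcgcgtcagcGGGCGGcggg
HDGFL2: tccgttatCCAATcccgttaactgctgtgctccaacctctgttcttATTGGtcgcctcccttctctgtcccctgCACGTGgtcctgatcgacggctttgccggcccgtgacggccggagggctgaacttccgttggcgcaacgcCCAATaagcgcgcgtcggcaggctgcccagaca
KMT5C: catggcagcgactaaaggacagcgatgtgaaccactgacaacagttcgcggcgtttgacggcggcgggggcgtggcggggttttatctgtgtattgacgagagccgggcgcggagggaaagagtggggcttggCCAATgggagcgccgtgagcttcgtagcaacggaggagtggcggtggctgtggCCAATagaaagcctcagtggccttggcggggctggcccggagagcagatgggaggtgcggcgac
PCNX3: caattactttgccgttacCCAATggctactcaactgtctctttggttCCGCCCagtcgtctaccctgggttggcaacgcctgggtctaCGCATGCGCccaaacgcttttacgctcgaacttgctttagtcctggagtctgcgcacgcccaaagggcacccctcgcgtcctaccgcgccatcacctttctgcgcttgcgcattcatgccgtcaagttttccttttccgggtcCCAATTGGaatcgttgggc
VMAC: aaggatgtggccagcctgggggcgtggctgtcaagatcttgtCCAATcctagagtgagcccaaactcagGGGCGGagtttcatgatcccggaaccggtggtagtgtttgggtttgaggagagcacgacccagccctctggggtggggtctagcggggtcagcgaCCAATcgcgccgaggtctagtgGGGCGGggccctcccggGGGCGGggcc
PER3: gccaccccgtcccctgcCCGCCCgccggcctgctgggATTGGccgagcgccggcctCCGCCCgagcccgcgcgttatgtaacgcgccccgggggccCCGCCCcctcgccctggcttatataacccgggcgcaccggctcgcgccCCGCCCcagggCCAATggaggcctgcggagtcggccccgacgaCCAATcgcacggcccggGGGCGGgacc
DBP: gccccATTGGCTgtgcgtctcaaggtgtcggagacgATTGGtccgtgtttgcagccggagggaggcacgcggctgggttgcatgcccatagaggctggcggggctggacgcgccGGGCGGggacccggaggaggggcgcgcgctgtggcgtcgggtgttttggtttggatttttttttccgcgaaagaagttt

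Of the 7 stretches from the best ranked members, 6 held CCAAT on one strand or the other and 5 held a GC box. Among all member promoters with a sequence, 48.7% held CCAAT and 76.6% a GC box. Those shares are for windows from 250 bases before to 50 bases after a listed start. The stretches have other lengths and were picked by rank, so no excess is read from their counts. The short form CCAAT was added to the search after the promoter sequences had been read. CIC, HDGFL2 and PCNX3 had 3 CCAAT matches each, AP2A1, KMT5C and VMAC had 2 each, and ELL had 0. At PCNX3, 2 of the matches overlap as CCAATTGG. PER3 combined 5 GC boxes with 3 CCAAT matches over 214 bases with a GC content of 79.0%. Stretches of the same kind at EGR1 and MEN1, not printed, held fewer. EGR1 held none of the searched motifs over 126 bases, and MEN1 held 1 CCAAT match and no GC box over 105 bases.

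The member peaks sat just upstream of the start. The median PRMT6 centre lay at −117 bp (−127.5 to −108 bp), where negative values are upstream of the 5′ end in the direction of the gene, and 1320 of 1838 centres (71.8%, 69.7% to 73.9%) were upstream. The interval from 250 to 1 bp upstream alone held 990 centres (53.9%, 51.6% to 56.2%). Within 500 bp of the 5′ end lay 1513 centres (82.3%), although the rule allowed 3 kb. The PARP1 peak that overlapped best, meaning the one with the higher score where a member met 2, had its median centre at −121 bp (−128.5 to −112.5 bp). The difference between both centres within a member had a median of −4.5 bp (−9 to 0.5 bp), and 1387 of 1838 pairs of centres (75.5%) were within 100 bp of each other. Members were selected on overlap, which bounds this offset and leaves out pairs that lie farther apart, so these values are a description.

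**Figure D1:**
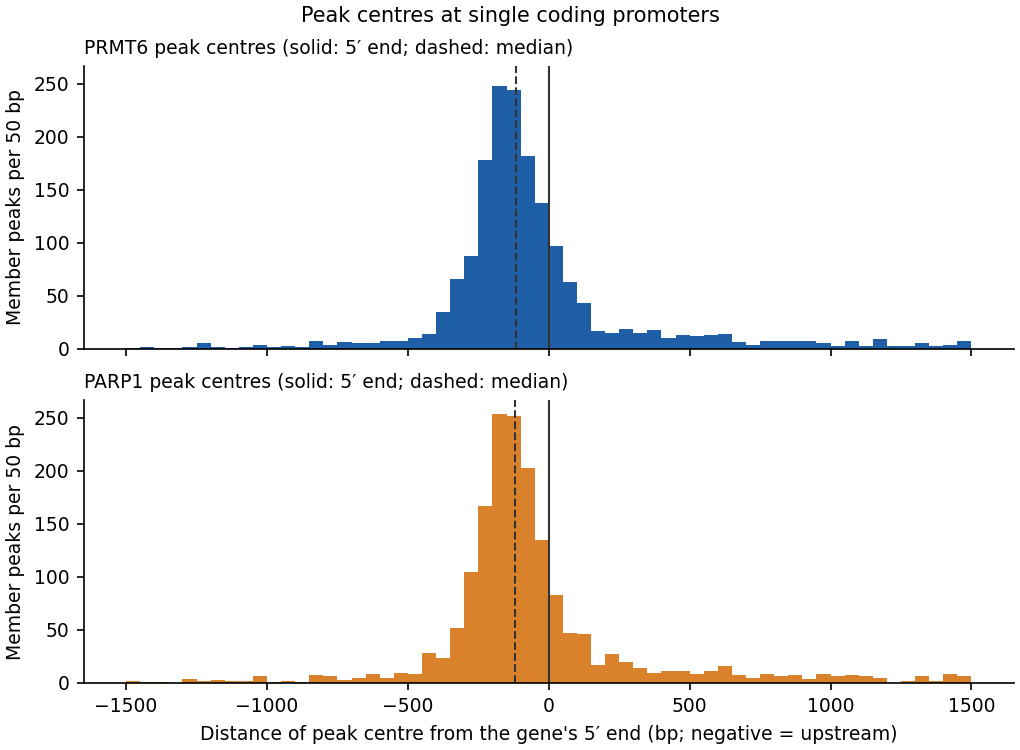
Distance of the PRMT6 (top) and PARP1 (bottom) peak centres from the 5′ end of the nearest coding gene, in bp, as the number of member peaks per 50 bp. Both distributions have their mode upstream of the solid line at the 5′ end, with medians of −117 and −121 bp (dashed), and 127 PRMT6 and 128 PARP1 centres beyond 1500 bp are not drawn.

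The PARP1 peaks were narrower and lay largely inside the PRMT6 peaks. The median width was 417 bp (410 to 426 bp) for PRMT6 and 345 bp (338 to 352 bp) for PARP1, and the pair shared a median of 294 bp. The PARP1 peak began 34 bp (30 to 40 bp) inside the upstream edge and ended 43 bp (38 to 50 bp) inside the downstream edge, as medians. In 735 members (40.0%) the PARP1 peak lay wholly inside the PRMT6 peak, and in 140 (7.62%) the reverse held. Widths have a floor that differs between the lists, since the smallest listed width is 288 bp for PRMT6 and 200 bp for PARP1, and its part in these offsets was not tested. Of the members, 317 (17.2%) had the smallest PRMT6 width.

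The PRMT6 peak covered the 5′ end in 1108 of 1838 members (60.3%, 58.0% to 62.5%). At bidirectional promoters with a shared peak, where a pair of 5′ ends lies close together, 239 of 265 peaks did (90.2%, 86.0% to 93.5%), and the difference, members minus pairs, was −29.9 percentage points (−33.7 to −25.2). The distance limits of these classes differ, since peaks at pairs lay within 1 kb of a gene of the pair and members within 3 kb. A peak at a pair also counted if it covered either 5′ end of the pair. The part of this in the difference was not tested. With a 1 kb window the share of members was 66.1%. At single promoters where PRMT6 had no overlapping PARP1 peak, 386 of 848 did (45.5%, 42.1% to 48.9%), and members exceeded them by 14.8 points (10.7 to 18.8). The centres of these PRMT6-only peaks were also less often upstream, in 507 of 848 (59.8%), a difference of 12.0 points (8.16 to 15.9). They were weaker and narrower, with a median score percentile of 47.3 against 77.9 for members and with 493 of 848 (58.1%) at the smallest width. The part of peak width in these differences was not tested.

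Each gene was given 1 start, the 5′ end of its record, and many genes have further starts. Of 283 members with the centre more than 250 bp downstream of the record 5′ end, 102 (36.0%, 30.4% to 41.9%) lay within 250 bp of another start that RefSeq lists for the gene. With the nearest listed start in place of the record 5′ end, the median centre moved from −117 to −134 bp (−140 to −125 bp). Among the members far downstream of the record 5′ end were KAT6B, a histone acetyltransferase, at 1476 bp and NR1D1, a repressor of the clock, at 1346 bp.

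Each peak carries a score, which is its p-value from the peak caller on the −log10 scale. It is used here as a rank or as a percentile within its own list, since it is not comparable between libraries. The rule used the presence of both peaks, so the levels are a description of the selected peaks. Members ranged from a PRMT6 score of 3.09 to 53.9 with a median of 7.89, and from a PARP1 score of 3.10 to 57.0 with a median of 8.85. Their median percentile was 77.9 by PRMT6 score and 75.7 by PARP1 score. The top decile of the PRMT6 list held 906 peaks, and 474 of them (52.3%, 49.0% to 55.6%) were members. In the top decile of both lists were 267 members (14.5%), and in the lower 50% of both lists were 123 (6.69%). Over the 1838 members, the PRMT6 and PARP1 percentiles had a Spearman correlation of 0.53, and the PRMT6 percentile and width one of 0.65. Peaks called at the same place share open chromatin and base composition, so these are descriptions without a test.

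Stronger members lay farther upstream and were wider. In the lowest decile of the members by PRMT6 score, with scores from 3.09 to 4.88, the median centre was at −46.5 bp (−86.5 to −14 bp) and the median width was 288 bp. In the highest decile, with scores from 15.8 to 53.9, the median centre was at −186.8 bp (−205.5 to −155.5 bp) and the median width was 586 bp. The intervals of these 2 deciles did not overlap. The PRMT6 peak covered the 5′ end in 47.8% (40.4% to 55.3%) of the lowest decile and in 67.4% (60.1% to 74.1%) of the highest. The PARP1 peaks of the same members widened from a median of 293.5 to 477.5 bp, and their median percentile ran from 55.7 to 97.0.

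**Figure D2:**
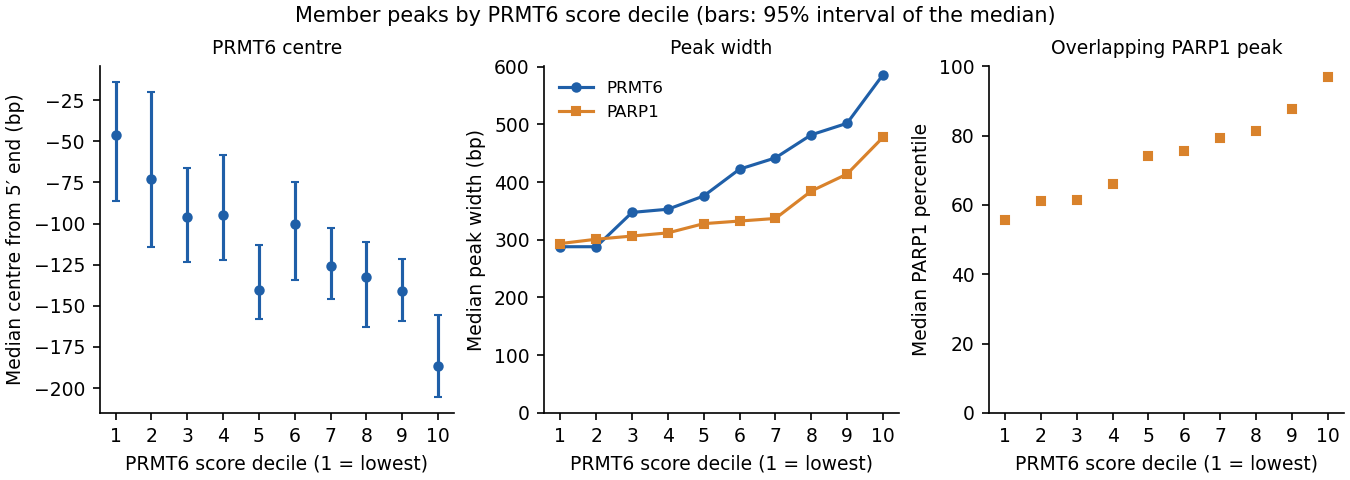
Member peaks split into deciles by PRMT6 score, from 1 (lowest) to 10 (highest). The left panel gives the median distance of the PRMT6 centre from the 5′ end in bp with its 95% interval, the middle panel the median widths in bp of the PRMT6 and PARP1 peaks, and the right panel the median PARP1 score percentile, which ran from 55.7 to 97.0.

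The 10 members with the best mean of both ranks included 6 on chromosome 19, which held 222 of all 1838 member peaks. Upstream of the 5′ end lay 8 of the 10 PRMT6 centres, beside 71.8% of the centres of all members. The PRMT6 peaks of these 10 were 563 to 977 bp wide. The best was at CIC, which encodes a transcriptional repressor of the HMG-box family, with PRMT6 rank 3 (score 49.95) and PARP1 rank 8 (score 50.1). Its peaks, chr19:42268310-42269286 for PRMT6 and chr19:42268305-42269210 for PARP1, shared 901 bp and covered the 5′ end. AP2A1, a subunit of the clathrin adaptor AP-2, ranked 10 and 15 with centres 379 and 336 bp upstream. ELL, a factor that speeds elongation by RNA polymerase II, ranked 16 and 10. KPNB1, the importin that carries cargo into the nucleus, ranked 18 and 16. HDGFL2, a chromatin reader related to the growth factor HDGF, ranked 13 and 22. KMT5C, a methyltransferase for lysine 20 of histone H4, held PRMT6 rank 4 and PARP1 rank 33. PCNX3 ranked 8 and 32, ETV5, an ETS transcription factor, 37 and 12, VMAC 2 and 64, and KAT6B 14 and 56. All 10 were chosen for these ranks, so their height is the rule and no result.

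Promoter sequence was compared for genes with a listed start within 3 kb of the record 5′ end, which held for 1672 of the 1997 genes with a member peak (83.7%). The classes used beside them were single-promoter genes with a PRMT6 peak but no PARP1 peak within 3 kb (655 of 806, 81.3%), single-promoter genes with a PARP1 peak only (1169 of 1444, 81.0%), and genes of head-to-head pairs with a shared peak (427 of 526, 81.2%). The last class, called pairs below, counts genes, so both genes of a pair can enter with windows that share bases. Its intervals, and those of differences from it, may therefore be too narrow. For all coding genes, 75.6% had a listed start. This is under the 80% set for a comparison, so their share is given as a reference level and no difference is read from it. Median observed over expected CpG was 0.848 (0.841 to 0.855) at member promoters, 0.842 at promoters with PRMT6 only, 0.839 with PARP1 only, 0.863 at pairs with a shared peak and 0.768 over all coding promoters with a window. The intervals of the classes with a peak overlapped. CpG-rich windows made up 1450 of 1672 member promoters (86.7%), 81.4% (78.2% to 84.3%) of those with PRMT6 only and 79.1% (76.7% to 81.4%) of those with PARP1 only.

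The CCAAT motif was more frequent at member promoters than at promoters with a peak of 1 protein. CCAAT or ATTGG, the core that NF-Y recognizes, occurred in 814 of 1672 member windows (48.7%, 46.3% to 51.1%). It occurred in 34.8% (31.2% to 38.6%) of windows with PRMT6 only, a difference of 13.9 percentage points (9.45 to 18.2), and in 39.4% (36.5% to 42.2%) of windows with PARP1 only, a difference of 9.33 points (5.63 to 12.99). Among CpG-rich windows alone, the difference from PRMT6 only was 16.1 points (11.2 to 20.7). Among genes whose best PRMT6 peak was in the upper 50% of its list, it was 12.3 points (6.24 to 18.1). Genes of pairs with a shared peak held the motif more often than members did, in 58.5% (53.7% to 63.3%). The share at genes of the other head-to-head pairs was 36.7% (33.9% to 39.5%). The level over all coding promoters with a window was 36.5%. The 7-base form AGCCAAT occurred in 15.6% (13.8% to 17.4%) of member windows, 9.92% of those with PRMT6 only, 11.3% of those with PARP1 only, 21.8% of pairs with a shared peak and 8.83% of all coding promoters with a window. Matches to the core in member windows lay at a median of −105.5 bp from the start, with quartiles at −170.5 and −63.5 bp. These letters include the 7-base form and were added to the search after the promoter sequences had been read. The windows are fixed around the start, while a gene entered a class with a peak anywhere within 3 kb. The PRMT6 peak covered the 5′ end in 60.3% of members but in 45.5% of PRMT6-only peaks. Where it covered the 5′ end of a member gene, 55.5% of windows held the core. No comparison was matched for peak position, and its part in these differences was not tested. A match is a description of the sequence, and binding of NF-Y was not measured.

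For each of the other motifs searched, the interval of the difference between members and PRMT6-only promoters included 0. The GC box GGGCGG occurred in 76.6% (74.5% to 78.6%) of member windows and 73.3% (69.7% to 76.6%) of windows with PRMT6 only, and the interval of the difference ran from −0.588 to 7.30 points. Windows with PARP1 only held it in 68.3% (65.6% to 71.0%), and members exceeded these by 8.21 points (4.87 to 11.6). Over all coding promoters with a window the share was 59.1%, and over the CpG-rich ones 79.2%. The ETS motif CCGGAAG occurred in 17.8% (16.02% to 19.7%) of member windows against 18.3% with PRMT6 only (difference from −4.10 to 2.87 points) and 14.5% of all windows. It was less frequent at members than at pairs with a shared peak, where it occurred in 26.2% (22.1% to 30.7%), with a difference, members minus pairs, of −8.41 points (−13.1 to −4.02). The E-box CACGTG, the site of basic helix-loop-helix factors such as CLOCK and BMAL1, occurred in 10.8% (9.38% to 12.4%) of member windows, 10.2% with PRMT6 only and 8.89% of all windows. The TATA box letters TATAAA, searched anywhere in the window, occurred in 5.08% (4.08% to 6.25%) of member windows, 6.11% with PRMT6 only and 9.71% of all windows. The NRF1 motif GCGCATGCG was present in 4.49%, 4.12% and 2.83% of these classes, and the YY1 motif AAGATGGCG in 4.72%, 4.58% and 2.82%. The AP-1 motif TGAGTCA, which read on the other strand is TGACTCA, was present in 3.11%, 3.66% and 3.60%. Among genes whose best PRMT6 peak was in the upper 50% of its list, AP-1 was less frequent at members (2.72%) than with PRMT6 only (5.45%). That difference was −2.73 points (−5.92 to −0.481). Over all promoters (−2.43 to 0.966 points) and among CpG-rich windows (−2.10 to 1.04 points) the interval for AP-1 included 0. No interval was adjusted for the number of motifs and comparisons. The CRE motif TGACGTCA of CREB and ATF factors was present in 3.11% of member windows, 3.05% with PRMT6 only and 2.64% of all windows. For the E2F motif TTTCCCGC these shares were 3.35%, 2.60% and 2.21%, and for its form TTTGGCGC they were 1.38%, 1.07% and 0.895%. The rarer letters were TCTCGCGAG of ZBTB33 and BANP (1.85% of member windows, 1.09% of all), ACTACAATT of ZNF143 (0.778% and 0.471%), the splice site letters GGTAAGT (1.20% and 1.43%) and CCATATTAG, a form of the serum response element (0.179% and 0.0874%). All motifs were searched on both strands.

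Within the members, the 855 genes with higher PRMT6 scores held CCAAT in 52.2% (48.8% to 55.6%) of windows and the 817 with lower scores in 45.0% (41.6% to 48.5%), 7.12 points apart (2.33 to 11.9). For the GC box the values were 79.6% and 73.3%, 6.33 points apart (2.27 to 10.4). AP-1 went the other way, with 2.11% at higher and 4.16% at lower scores, a difference of −2.06 points (−3.83 to −0.383). The ETS motif, with 17.0% and 18.7%, had an interval of the difference that included 0 (−5.45 to 1.90 points).

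**Figure D3:**
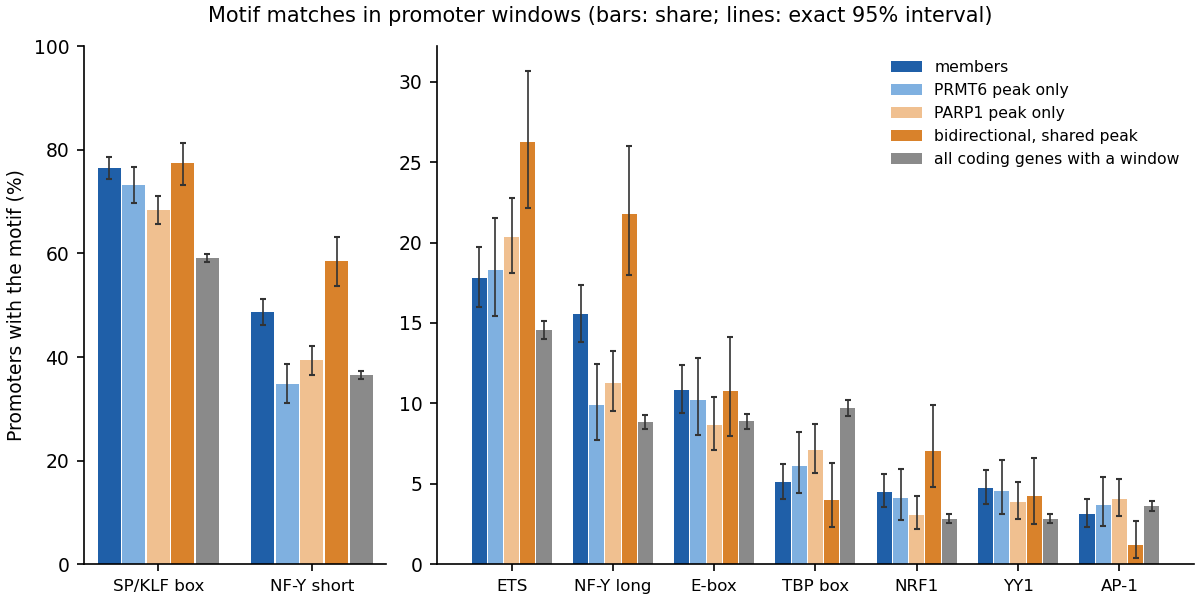
Share of promoter windows (250 bases before to 50 after a listed start) with a match to a motif, in percent, for 5 classes of genes, with exact 95% intervals as lines. NF-Y short is the CCAAT core, NF-Y long the AGCCAAT form, and TBP box the TATAAA letters. Member promoters hold the core in 48.7% of windows against 34.8% with a PRMT6 peak only and 58.5% at pairs with a shared peak.

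A single coding promoter can still have a noncoding partner. Of the 1997 genes with a member peak, 268 (13.4%, 12.0% to 15.0%) had the 5′ end of a long noncoding RNA gene on the opposite strand within 1 kb upstream. The share was 11.2% at genes with PRMT6 only and 11.5% at genes with PARP1 only, and the intervals of both differences included 0 (−0.504 to 4.79 and −0.331 to 4.12 points). At the 13353 single-promoter genes with no peak it was 6.29% (5.88% to 6.72%), and members exceeded it by 7.13 points (5.64 to 8.75). Among genes with a CpG-rich window the shares were 15.7% and 11.7%, a smaller gap of 3.98 points (1.98 to 6.12). A window was at hand for 72.5% of the genes without a peak, so this pair of values is a description. Only 12816 of 18177 noncoding records had a known strand, so these shares are lower limits.

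Some members lie over a small RNA gene next to the coding start, which the label of a coding promoter does not show. Such overlaps with a small nuclear, small nucleolar, RNase P or transfer RNA gene were found for 23 of the 1838 members. These genes were looked up after their values had been seen. At WDR74, the PRMT6 peak overlapped RNU2-2, a gene of the U2 spliceosomal RNA. This member held rank 352 in the PRMT6 list and rank 2 in the PARP1 list. The peak at POLDIP3 overlapped RNU12 (ranks 1737 and 3) and that at TAF12 RNU11 (ranks 3526 and 58), both RNAs of the minor spliceosome. At TMEM107 it overlapped SNORD118, the U8 RNA of ribosomal RNA processing (ranks 3000 and 36), and at TTI2 SNORD13 (ranks 6841 and 415). At PARP2, a relative of PARP1 that responds to DNA breaks, it overlapped RPPH1, the RNA of RNase P, with ranks 65 and 13. In each of these 6 members the PARP1 percentile was above the PRMT6 percentile, as it was in 827 of all 1838 members (45.0%). TMEM259 over RNU6-2, a gene of the U6 RNA, went the other way with ranks 1088 and 3265. Of the 16 members over a transfer RNA gene, 7 had a PARP1 percentile above the PRMT6 percentile. One of the 16 was at PRMT5, another arginine methyltransferase, with ranks 3341 and 1635. Because the values had been seen first, no lean is read from these counts.

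Over all 1838 members, those over small RNA genes included, wide gaps between the 2 percentiles were few. The PRMT6 percentile exceeded the PARP1 percentile by more than 50 points at 90 members (4.90%) and fell short by more than 50 at 56 (3.05%). The widest gaps in favor of PRMT6 were at KAZALD1 (percentiles 91.1 and 1.06), TMEM263 (89.9 and 3.88), MUC1, a mucin of the epithelial surface (84.8 and 1.87), CHMP4B, a subunit of the ESCRT-III membrane-cutting complex (91.2 and 10.5), and GSR, the glutathione reductase (88.8 and 9.36). In favor of PARP1 they were at SH2D5 (0.0275 and 92.6), CHMP4A (1.88 and 92.5), STAG1, a cohesin subunit (12.0 and 97.1), TTI2 (19.2 and 96.4) and DENND4A (3.74 and 79.6). CHMP4A and CHMP4B, close relatives, thus stood at opposite ends. The widest PRMT6 peaks were at MBOAT7 (1357 bp), SKIL, a repressor of TGF-beta signaling (1045 bp), and FBXL19 (1040 bp), where the PARP1 peak spanned 710, 286 and 393 bp.

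**Figure D4:**
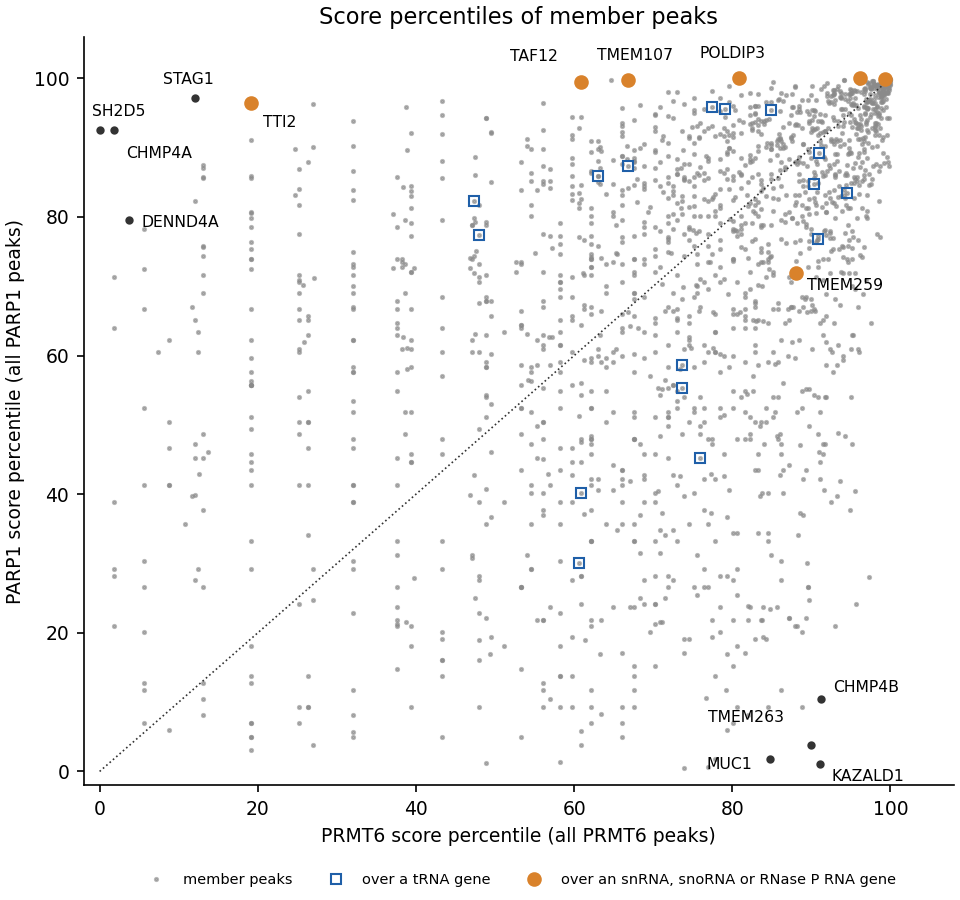
Score percentile of each of the 1838 member peaks in the PRMT6 list (x axis) and of its best overlapping PARP1 peak in the PARP1 list (y axis), with equal percentiles on the dotted line. Orange points, members over a small nuclear, small nucleolar or RNase P RNA gene, lie above the line in 6 of 7 cases, blue squares mark the 16 members over a transfer RNA gene, black points are the members with the widest gaps, and columns of points are tied scores.

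The genes that the study examined by chromatin immunoprecipitation with PCR are 10, of which 8 have a single promoter. Member peaks were present at 5 of these 8 (62.5%, 24.5% to 91.5%), beside the background of 11.3%. Among them were PER3, CDC73, EGR1 and MEN1. The study chose these genes with its own binding data in view, so this count is not independent evidence. PER3, a repressor of the circadian clock, had PRMT6 rank 449 and PARP1 rank 5328. CDC73, a subunit of the PAF1 elongation complex, had ranks 2527 and 4456, EGR1, an immediate-early zinc finger factor, 2621 and 7301, and MEN1, the menin tumor suppressor, 3935 and 4307. CSNK1A1 and MRE11 belong to head-to-head pairs with 5′ ends 186 and 49 bp apart and so fell under the exclusion. PER1 and ARID5A had no peak of either list within 3 kb. The paper nevertheless reports enrichment at both promoters by this PCR method, and it also shows PRMT6 and PARP1 binding profiles at PER1. The cause of this difference was not tested. BHLHE40 and GAPDH, the internal control of the study, had peaks of both lists within 3 kb but no member peak.

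Among 24 single-promoter genes of the core clock list, 6 had a member peak, a share with an interval of 9.77% to 46.7% that includes the background of 11.3%. NR1D1, which represses BMAL1 transcription, had the best mean rank, with ranks 905 and 130. DBP, a PAR bZIP output factor, had ranks 444 and 2841, CRY2, a repressor that partners with PER proteins, 1604 and 2083, and NR1D2, the paralog of NR1D1, 7963 and 2057. CLOCK, BMAL1, NPAS2 and PER2 had no peak within 3 kb, and CRY1, TEF and TIMELESS had a PARP1 peak only.

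Immediate-early and AP-1 genes, which respond within minutes to growth signals, had a member peak at 13 of 29 (44.8%, 26.5% to 64.3%). JUN (ranks 529 and 31) and JUND (200 and 52), subunits of AP-1, stood highest with DUSP6, a phosphatase of the kinase ERK (540 and 615), and KLF6 (321 and 1003). Of 31 DNA repair genes, 11 had a member peak (35.5%, 19.2% to 54.6%). MDC1, an adaptor at DNA breaks, had ranks 32 and 86, BARD1, the partner of BRCA1, 357 and 1925, and XRCC1, a scaffold recruited by PARP1, 1139 and 3398. The study's own list of tumor suppressors had 2 of 7 (3.67% to 71.0%), BARD1 and AXIN1. Its list of oncogenes had 1 of 8 (0.316% to 52.65%), ETV1. The intervals of both lists include the background of 11.3%. The study named the genes of both lists for their expression after PRMT6 depletion in the same cell line.

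Enzymes of histone methylation had a member peak at 13 of 46 genes (28.3%, 15.99% to 43.5%). The arginine methyltransferases CARM1 (ranks 24 and 117) and PRMT1 (180 and 517) and the lysine methyltransferases KMT5C and SETD5 (141 and 309) ranked highest. Of the complex itself and its partners 3 of 8 had one, namely LDHA, HDAC1 and RBX1, the RING subunit of cullin ligases. The interval of this share, 8.52% to 75.5%, includes the background of 11.3%. Cell cycle genes had 11 of 43 (25.6%, 13.5% to 41.2%), led by CDK4 (913 and 279), CDKN2D (871 and 557), WEE1 (928 and 592) and CDC6 (803 and 917). RNA polymerase II, Mediator and elongation genes had 12 of 52 (23.1%, 12.5% to 36.8%), led by ELL, CCNK (466 and 331), TAF15 (673 and 397) and POLR2E (928 and 1235). For both of these lists, and for the histone methylation enzymes, the interval lay above the background of 11.3%. Each of these intervals included the 17.9% of CpG-rich genes. All gene lists were chosen with earlier results of these data known, so none of these counts is independent evidence. Nuclear transport genes had 12 of 47 (25.5%, 13.9% to 40.3%), with KPNB1, XPO1, the main exportin (365 and 503), NUP107 (590 and 1553) and NUP85 (1396 and 3085). Ribosomal protein genes had 16 of 69 (23.2%, 13.9% to 34.9%), among them RPL27 (1358 and 162), RPL41 (426 and 1508) and RPL23A (527 and 2599). The intervals of both lists again lay above 11.3% and included 17.9%. Wnt signaling genes had 10 of 49 (20.4%, 10.2% to 34.3%), with GSK3B (212 and 830), GSK3A (903 and 836), CTNNBIP1 (498 and 3016) and WNT1 (2073 and 2297). Genes of epithelial-mesenchymal transition and breast lineage had 4 of 32 (12.5%, 3.51% to 29.0%), namely ITGB1, TGFBR2, VIM and SMAD2, and zinc finger genes had 52 of 445 (11.7%, 8.85% to 15.0%).

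Olfactory receptor genes, which are expressed chiefly in the nose, had 0 of 386, which allows a share of up to 0.777% when taken as 3 counts of the total and has an exact upper limit of 0.951%, and keratin and keratin-associated genes had 2 of 149 (1.34%, 0.163% to 4.77%), KRTAP4-8 and KRTAP4-16, which share 1 peak. The intervals over all genes of a list were also set against the 17.9% of CpG-rich genes. Those of the immediate-early, DNA repair and qChIP lists lay above 17.9%. Those of the zinc finger, keratin and olfactory receptor genes lay below it, and those of the other lists included it. Within CpG-rich promoters the zinc finger genes, with 40 of 263 (15.2%, 11.1% to 20.1%), included it. The keratin list had no CpG-rich promoter and the olfactory receptors had 4, so they allow no such comparison. Within CpG-rich promoters, 8 of 19 immediate-early genes (42.1%, 20.3% to 66.5%) and 8 of 21 DNA repair genes (38.1%, 18.1% to 61.6%) had a member peak. The histone methylation enzymes, whose interval over all their genes included 17.9%, lay above it there with 13 of 37 (35.1%, 20.2% to 52.5%). The qChIP genes, whose interval over all their genes lay above it, included it there with 3 of 6 (11.8% to 88.2%).

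**Figure D5:**
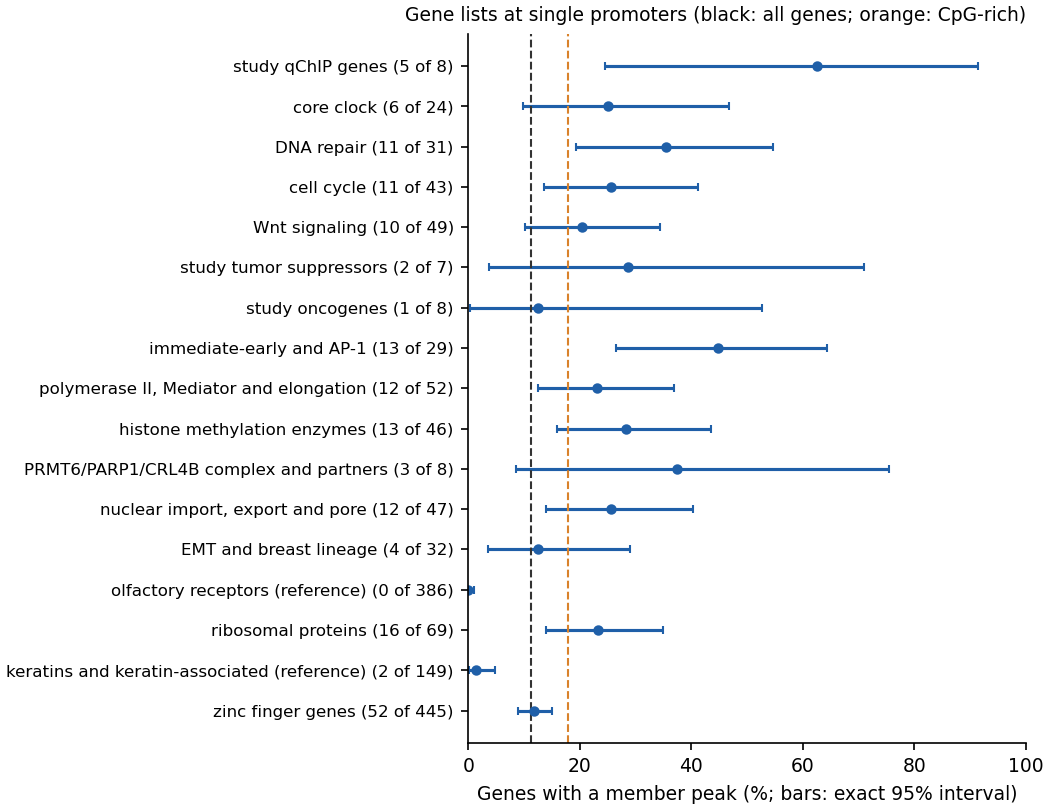
Share of the single-promoter genes of each list that had a member peak, in percent, with exact 95% intervals and the counts beside the names. The black dashed line marks the 11.3% of all single-promoter genes and the orange one the 17.9% of those with a CpG-rich window. Immediate-early and AP-1 genes are at 44.8%, and olfactory receptors at 0.

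The edges of the rule were as follows. Just inside the 3 kb window lay the peaks at EML2 (2987 bp from the 5′ end) and GEM (2965 bp), and just outside it those at GRSF1 (3001 bp) and MAFK (3069 bp). The smallest overlaps were 1 bp at TTYH2 and 3 bp at NRBP1, while the PRMT6 peak at HECTD2 missed a PARP1 peak by 3 bp and that at ASH2L by 4 bp. The peak at TSPAN4, 1023 bp from a gene of a pair, and that at IER2, 1095 bp, were kept, and those at ISCU, 807 bp, and GPBP1L1, 612 bp, were left out. TMEM38A and SMIM7, with 5′ ends 995 bp apart, counted as a pair, and USH1G and OTOP2, 1018 bp apart, did not.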

How the data were processed

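CUT&Tag libraries of MDA-MB-231 cells, 1 per antibody, were analysed. The labels also describe ligation of adaptors to immunoprecipitated DNA, so how the libraries were built is unclear. Peaks were called by the authors with MACS, separately for both antibodies. The submitters' processing notes name CASAVA 1.4, Bowtie 0.12.8, MACS, MACS2 and hg19, yet 55 PRMT6 and 61 PARP1 peaks end beyond GRCh37 chromosome ends, so RefSeq gene records of GRCh38.p14 were used. The deposited score gives each peak's p-value as −log10. Read depth, thresholds and a control library are not given in the sources used here. Peak starts were taken as 0-based and shifted by 1, so printed positions are 1-based.

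Strand came from the RefSeq promoter table or the GENCODE gene of the same name, and 300 of 19974 coding records without one were left out. Overlaps, exact (Clopper-Pearson) intervals, and Newcombe intervals for differences were computed in Python 3.11.15 with numpy 2.4.6, pandas 2.3.3 and scipy 1.17.1, and the member rule was tested on simulated data. Named are the 10 members with the best mean rank, 5 with the largest percentile gap each way, up to 4 per gene list, 3 genes with 2 peaks, the 3 widest members, those at thresholds, and the qChIP and clock genes. Some such genes are not reported here one by one. The members, the 17 gene lists and the 16 motifs were chosen with earlier results of these data known, and 1 motif was added later.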

Additional observations from a re-analysis of the deposited data

How the results depend on the processing

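The number of members was within 1.5 times 1838 under each alternative, from 1232 with the higher-scoring 50% of each list to 1815 without members over small RNA genes. The share of single-promoter genes with a member peak, 11.3%, moved to 10.2% with a 1 kb window, 9.56% with 50% reciprocal overlap, 7.67% with the higher-scoring 50%, 8.87% without peaks of the smallest width, 10.5% with the PARP1 list at the length of the PRMT6 list and 17.9% for CpG-rich promoters. The share of members over the 5′ end, 60.3%, moved to 66.1% with the 1 kb window, 63.6% with the higher-scoring 50% and 62.9% without the smallest width. The median PRMT6 percentile, 77.9, moved to 80.0, 84.7 and 83.2 with reciprocal overlap, the higher-scoring 50% and no smallest width, and the PARP1 percentile, 75.7, to 79.1, 84.6 and 81.4, and to 77.9 with equal list lengths. The 50% and smallest-width settings remove weak peaks by construction. The cause of the other shifts was not tested. The median centre was at −134 bp from the nearest listed start. The offset between both peaks was 34 bp at the upstream and −43 bp at the downstream edges. With windows limited to genes whose 5′ end the PRMT6 peak covers, 19.8% held AGCCAAT, 55.5% CCAAT and 81.0% the GC box, and in CpG-rich windows 81.9% held the GC box. The other 30 alternatives stayed within the main interval or within 1.5 times the count. The alternatives with nearest listed starts, CpG-rich promoters, record 5′ ends, small RNA genes and the CCAAT core were chosen after seeing the data. No paired analysis was possible because there is a single library for PRMT6 and for PARP1. With no control library and no replicate, peaks that any antibody would give at open promoters cannot be told apart from binding of PRMT6 or PARP1.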
